A study of Mus musculus with 6 samples.

Results

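The numbered Zfp genes are mouse zinc finger genes whose symbol is Zfp followed by exactly 3 digits. The 185 members described here are the protein-coding genes of that name whose level averaged at least 5 CPM over all 6 libraries, where CPM is a gene's count divided by its library's total, rescaled so that libraries of any size compare. They were chosen from 315 protein-coding genes of that name and from 55416 genes in all. The rule used the symbol and the mean level over both groups, and not the difference between the groups. All 185 members passed the low-count filter of the test. Of them, 164 had a mean of at least 5 TMM-scaled CPM (CPM adjusted for library composition) in each group. The other 21 reached the threshold through the group in which they were higher, so their direction is tied to the rule: 19 had an allograft mean under 5, of which 15 fell, and 2 had an isograft mean under 5, of which both rose. The allograft counts are minimums, because the rule used unscaled CPM, which was lower than TMM-scaled CPM in allograft libraries. By unscaled CPM Zfp760 and Zfp974, which fell, also had an allograft mean under 5.

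Most proteins of this kind carry tandem C2H2 zinc fingers, small folds in which pairs of cysteines and histidines hold a zinc ion and a short helix reads DNA bases. Many also carry a KRAB domain near the start of the protein, which recruits the corepressor TRIM28 (KAP1) and with it the histone H3 lysine 9 methyltransferase SETDB1, and such proteins are known for silencing retroelements. KRAB zinc finger genes often sit in clusters of related copies, and other numbered Zfp genes encode promoter-binding factors, RNA-binding proteins or ribosome assembly factors with few fingers.

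The sequenced RNA came from splenic CD3+ T cells of wild-type C57BL/6 graft recipients. The control group was 3 libraries from isograft recipients (a graft from a genetically identical donor), and the other was 3 libraries from allograft recipients (a graft from a genetically different donor). Both groups shared the recipient strain, the CD3 selection, culture medium with serum, and library preparation with a SMARTER mRNA kit. The sources used here give neither the grafted organ, nor the donor's strain, nor the recipients' age or the day of collection. No label ties a library to its own mouse, so a p-value here reflects only library-to-library spread, part of which may be technical.

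Library totals ran from 30066137 to 37821738 counts. The 15 T cell markers were all detected, with a summed level of 2330 to 2416 TMM-scaled CPM in isograft and 2079 to 2274 in allograft libraries. The 15 B cell markers were detected too, at 1929 to 2035 in isograft and 2062 to 2197 in allograft libraries. Of the T cell markers 5 rose and 6 fell (median log2 fold change -0.06), and of the B cell markers 4 rose and 7 fell (-0.07). The B cell sum was thus higher in every allograft library although more of its markers fell than rose. Summed dendritic markers were 35.7 to 37.6 against 79.0 to 86.8, with Xcr1, Clec9a, Siglech and Cd209a under 1 CPM. Of the 6 dendritic markers tested 2 rose and 4 did not pass, with a median log2 fold change of 0.06. Summed stromal and endothelial markers were 263 to 268 against 128 to 143, with Cdh5, Pdgfrb and the 3 collagen genes under 1 CPM. Only 2 of these 7 markers were tested, of which 1 fell and 1 did not pass. The dendritic and stromal sums thus rest on few genes. Myeloid markers summed to 111 to 117 against 86.5 to 103, and plasma cell markers to 107 to 117 against 100.4 to 112. Of 11 myeloid markers tested 1 rose and 3 fell, and of 6 plasma cell markers tested 2 rose and 1 fell. NK markers summed to 36.6 to 40.5 against 38.2 to 42.2, platelet markers to 3.37 to 4.88 against 2.14 to 3.36 with Ppbp and Gp1bb at 0, and erythroid markers stayed under 1.5 in every library. The part of these differences in the results below was not tested, and in such bulk samples fewer cells of a type and less RNA per cell cannot be told apart.

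Upstream sequences are shown for a pair of members that fell and a pair that rose, because they span the promoter types found among the members. They are the 250 bases before the annotated start in RefSeq on GRCm38.p6, which is another build than that of the files' coordinates. Capitals mark CCAAT boxes (CCAAT or its reverse complement ATTGG) and GC boxes (GGGCGG or CCGCCC). Zfp386 (chr12:116047474-116047723, plus strand) and Zfp773 (chr7:7136756-7137005, minus strand) encode KRAB zinc finger proteins and were lower in allograft libraries. Zfp296 (chr7:19577037-19577286, plus strand), without a KRAB domain, and Zfp948 (chr17:21566728-21566977, plus strand), with one, were higher.
Zfp386: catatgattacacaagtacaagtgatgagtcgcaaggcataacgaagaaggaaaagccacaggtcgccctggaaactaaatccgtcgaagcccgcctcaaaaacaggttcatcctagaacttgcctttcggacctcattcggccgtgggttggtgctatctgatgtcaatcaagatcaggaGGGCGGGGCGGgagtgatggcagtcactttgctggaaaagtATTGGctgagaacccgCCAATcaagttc
Zfp773: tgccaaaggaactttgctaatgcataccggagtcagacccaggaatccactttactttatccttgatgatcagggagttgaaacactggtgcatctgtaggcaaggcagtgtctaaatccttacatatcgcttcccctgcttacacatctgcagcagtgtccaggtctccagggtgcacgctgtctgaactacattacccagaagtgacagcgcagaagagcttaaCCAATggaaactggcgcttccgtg
Zfp296: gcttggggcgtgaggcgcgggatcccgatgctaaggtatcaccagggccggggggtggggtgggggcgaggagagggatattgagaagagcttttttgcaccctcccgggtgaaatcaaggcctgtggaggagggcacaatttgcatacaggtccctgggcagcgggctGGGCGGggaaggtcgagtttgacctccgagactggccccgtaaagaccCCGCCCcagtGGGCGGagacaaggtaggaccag
Zfp948: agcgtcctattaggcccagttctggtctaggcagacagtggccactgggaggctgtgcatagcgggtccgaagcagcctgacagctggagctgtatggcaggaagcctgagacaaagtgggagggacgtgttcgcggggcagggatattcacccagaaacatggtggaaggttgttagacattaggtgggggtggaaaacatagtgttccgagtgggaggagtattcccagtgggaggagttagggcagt
The window of Zfp386 held both kinds of box, that of Zfp773 a single CCAAT box and that of Zfp296 GC boxes only. Neither motif was in the window of Zfp948, although this gene had one of the largest rises.

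A RefSeq window of 300 bases (250 before the start and 50 after it) was found for 158 of the 185 members, with 195 windows in all. On either strand, CCAAT was in 53.2% of 94 windows of members with a KRAB pattern, in 38.6% of 101 windows of the other members and in 37.5% of 8878 windows of other protein-coding genes at 5 CPM or more. GGGCGG was in 40.4%, 62.4% and 64.5% of the same windows. Over all 32851 mouse windows the shares were 37.4% for CCAAT and 35.7% for GGGCGG. The median number of CpG dinucleotides was 12 in windows of KRAB members and 22 in those of the other members. By direction, CCAAT was in 44.2% of 77 windows of members that fell and in 41.7% of 48 windows of members that rose, and GGGCGG in 54.5% and 58.3%. Of 7 further motifs searched on both strands, the 3 whose shares differed most by direction are given. CCGGAAGT, an ETS motif, was in 7.79% of windows of members that fell and 18.8% of those that rose, AAGATGGC, a YY1 motif, in 1.30% and 8.33%, and the NRF1 motif in 9.09% and 18.8%. Between windows with and without a KRAB pattern these shares were 8.51% and 10.9%, 6.38% and 4.95%, and 5.32% and 14.9%. In windows of other protein-coding genes at 5 CPM or more the shares of the 3 motifs were 9.70%, 5.23% and 11.4%. The shares of members that fell lay below these and those of members that rose above. Over all mouse windows they were 3.89%, 2.75% and 4.603%. These shares rest on few windows, are descriptions and were not tested.

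In the proteins, the C2H2 pattern was found in 183 of 185 members, with a median of 10 fingers and a range from 0 (Zfp330 and Zfp839) to 36 (Zfp142). A KRAB pattern was found in 89 members (48.1%), against 0.728% of other protein-coding genes at 5 CPM or more. The members with it had a median of 12 fingers, those without it 7. Their transcripts were also poorer in G and C, with a median of 41.4% against 49.9%. Per kilobase of exon, the median member stood at 4.40 CPM, KRAB members at 3.35, members without KRAB at 5.59 and other protein-coding genes at 7.90. The highest levels per kilobase belonged to Zfp830 (57.8), a splicing factor, Zfp106 (43.5), an RNA-binding protein needed by motor neurons, and Zfp513 (39.6), named here after its value was seen. Of the 20 members highest per kilobase, 5 had the KRAB pattern, with Zfp445 first among them at 31.2.

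The comparison of allograft with isograft recipients asked how the members' transcripts differed between CD3-selected spleen cells of mice given a foreign graft and of mice given a matched one. B cell markers were also detected in these libraries, as given above. More members fell than rose: 71 of 185 (38.4%) were lower in allograft libraries, 44 (23.8%) were higher and 70 did not pass (62.2% called in either direction), by edgeR's quasi-likelihood test with Benjamini-Hochberg adjustment over 14926 genes at 0.05. Among all genes tested 29.1% fell and 28.7% rose (57.8% in either direction), and among 8652 other protein-coding genes at 5 CPM or more 34.7% fell and 36.9% rose (71.6%). The members' share of falls was thus close to that of other genes of this range, and their share of rises was lower. The members' median log2 fold change (allograft minus isograft) was -0.17, beside -0.01 for all genes tested and 0.02 for the other protein-coding genes. With library totals in place of TMM the counts were 110 fallen and 23 risen and the median was -0.39, while the median of all genes moved by -0.22.

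Changes were mostly modest. A fall of at least 2-fold was seen in 16 members (8.65%, against 10.1% of all genes tested and 7.96% of the other protein-coding genes). A rise of that size was seen in 4 members (2.16%, against 10.1% and 9.69%). The groups did not overlap for 124 members (67.0%, against 63.3% of all genes tested and 75.3% of the other protein-coding genes). Among members that fell the median log2 fold change was -0.66, among those that rose 0.43, and those that did not pass lay between -0.42 and 0.27. Replicates were tight: the median coefficient of variation over members was 7.38% in isograft and 9.40% in allograft libraries, and the median SE of a log2 fold change was 0.11.

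**Figure D1:**
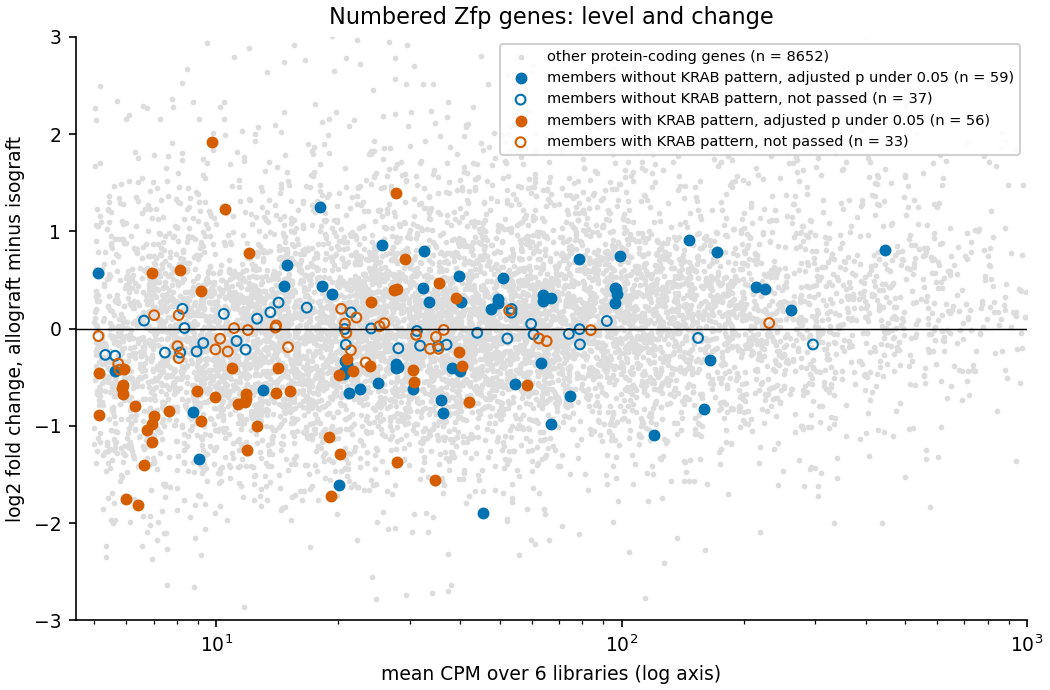
Mean CPM over 6 libraries (log axis) against log2 fold change (allograft minus isograft) for the 185 members (orange with and blue without KRAB pattern, filled where adjusted p was under 0.05) and other protein-coding genes (grey). The members spread from -1.90 to 1.92, with most filled orange points below 0 at the low levels; 147 other genes lie outside the axes, which end at 1000 CPM and at 3 on the log2 scale.

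Low members more often fell and abundant ones more often rose. Among 43 members at 5 to 10 CPM, 21 fell and 5 rose, and the median log2 fold change was -0.42. Of other protein-coding genes of that level 37.4% fell and 25% rose. Of the 21 member falls 15 had an allograft mean under 5 TMM-scaled CPM, and of the 5 rises 2 had an isograft mean under 5. The direction of these genes is tied to the rule, as it is for Zfp760 and Zfp974 of this band by unscaled CPM. At 10 to 20 CPM 13 of 34 members fell and 7 rose (40.5% and 28.2% of other genes), and at 20 to 40 CPM 26 of 60 fell and 12 rose (36.6% and 34%). At 40 to 80 CPM 8 of 29 fell and 9 rose (35.1% and 38.5%). Of the 19 members at 80 CPM or more, 3 fell and 11 rose, with a median of 0.26, beside 28.3% and 49% of other genes. The member medians over the 5 bands were -0.42, -0.12, -0.21, -0.04 and 0.26, with no steady order, and those of other genes were -0.14, -0.11, -0.02, 0.02 and 0.17. Both were lowest at 5 to 10 CPM and highest at 80 CPM or more.

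**Figure D2:**
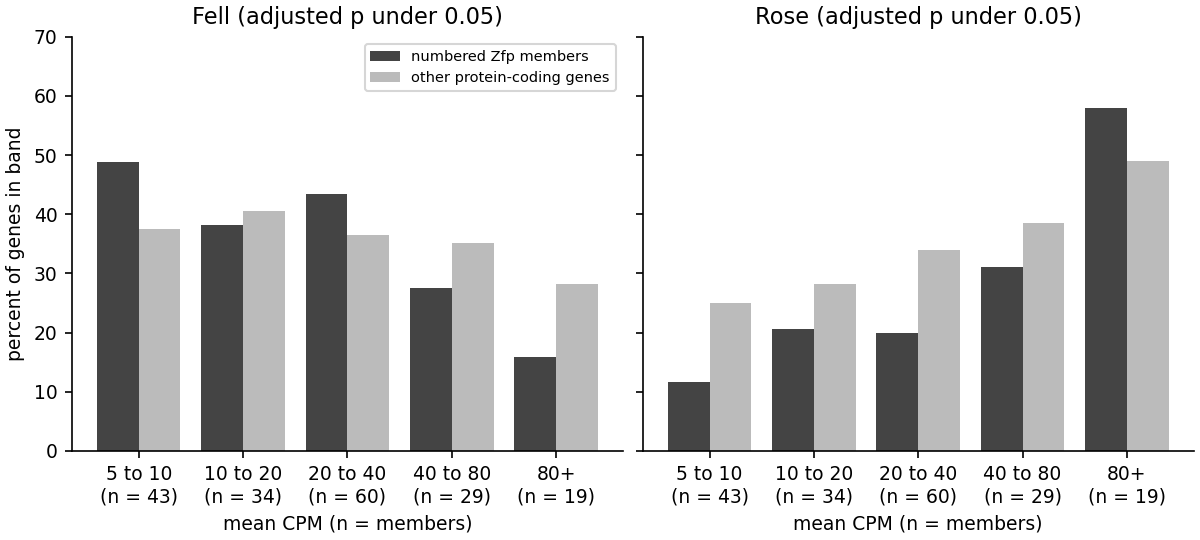
Percent of genes that fell (left) and rose (right) in 5 bands of mean CPM, for members (dark bars) and other protein-coding genes (light bars). The share of members that fell goes from 48.8% at 5 to 10 CPM to 15.8% at 80 CPM or more, and the share that rose from 11.6% to 57.9%. Of the 21 falls at 5 to 10 CPM, 15 had an allograft mean under 5 TMM-scaled CPM, so their direction is tied to the rule.

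More of the falls were in KRAB zinc finger genes than in the other members. Of the 89 members with a KRAB pattern 43 fell and 13 rose (median log2 fold change -0.32). Of the 96 without it 28 fell and 31 rose, with a median of -0.03. Summed over the KRAB members, TMM-scaled CPM was 2096, 2094 and 2008 in the isograft and 1695, 1841 and 1916 in the allograft libraries. Every allograft library was thus below every isograft library, with group means of 2066 ± 50.3 and 1817 ± 112 (SD, n = 3). The sum over members without the pattern was 5157, 5328 and 5312 in isograft and 5531, 5685 and 5662 in allograft libraries, higher in each allograft library. The sum over all members overlapped between groups, at 7253, 7422 and 7320 against 7226, 7526 and 7578. These sums lean on the most abundant members, and they depend on the scaling: without TMM the sum over members without the pattern was lower in every allograft library (5059 to 5295 against 5656 to 5712 CPM), as was that over KRAB members (1550 to 1792 against 2138 to 2306). With library totals 61 KRAB members fell and 8 rose, and of the members without the pattern 49 fell and 15 rose.

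The KRAB members were the less abundant ones, with a median mean level of 14.0 CPM against 33.0, so they were also set against genes of like level. At 5 to 20 CPM 30 of 51 KRAB members fell (58.8%) and 6 rose, with a median of -0.58. Of the 26 members without the pattern at that level 4 fell and 6 rose, with a median of 0.04, and of other protein-coding genes 39.1% fell and 26.7% rose. At 20 CPM or more 13 of 38 KRAB members fell and 7 rose, 24 of 70 others fell and 25 rose, and 32.6% of other protein-coding genes fell and 41.7% rose. Within that range the contrast turned at 20 to 40 CPM, where 10 of 30 KRAB members fell (33.3%, median -0.08) against 16 of 30 members without the pattern (53.3%, median -0.35). The low-level falls rest in part on the threshold. Of the 30 falls among KRAB members at 5 to 20 CPM, 13 had an allograft mean under 5 TMM-scaled CPM, and so passed the threshold through the isograft group. By the rule's unscaled CPM Zfp760 and Zfp974 did so too, and they are not among the 13. Of the falls among other protein-coding genes of that level 22.8% had such a mean, against 43.3% of the KRAB falls. The other 17 KRAB falls are 33.3% of all 51 KRAB members, beside 30.2% of other protein-coding genes counted the same way. Both shares keep the genes left out in the denominator. They thus understate the share of falls without those genes, more so for KRAB members. Whether KRAB members differ from other members at like level was not tested.

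Of 58 KRAB genes with other names at 5 CPM or more, each with at least 3 fingers, 34 fell (58.6%) and 9 rose (15.5%), with a median of -0.42. Among other protein-coding genes at 5 CPM or more 34.7% fell and 36.9% rose; these 58 had a median level of 13.1 CPM and were not matched for level, nor were the families that follow. Among zinc finger families of other symbols at 5 CPM or more, 17 of 31 Zfp genes with 1 or 2 digits fell and 9 rose, 10 of 19 Zfp genes with a letter suffix fell and 2 rose, and 8 of 17 Zkscan and Zscan genes fell and 1 rose. Of 34 Zbtb genes, which carry a BTB domain in place of KRAB, 10 fell and 7 rose. By number of fingers, 9 of 26 members with 0 to 3 fingers fell and 8 rose, while 13 of 29 members with 16 or more fell and 4 rose. Of 67 members under 42% GC 28 fell (41.8%) and 16 rose, where 25.2% of other protein-coding genes of that GC content fell. The gap was not found in every band. At 42 to 50% GC 28.8% of 59 members fell, beside 32.4% of other genes, and at 50% or more 44.1% of 59, beside 39.5%. After an offset for length and GC content 49 KRAB members fell and 10 rose.

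**Figure D3:**
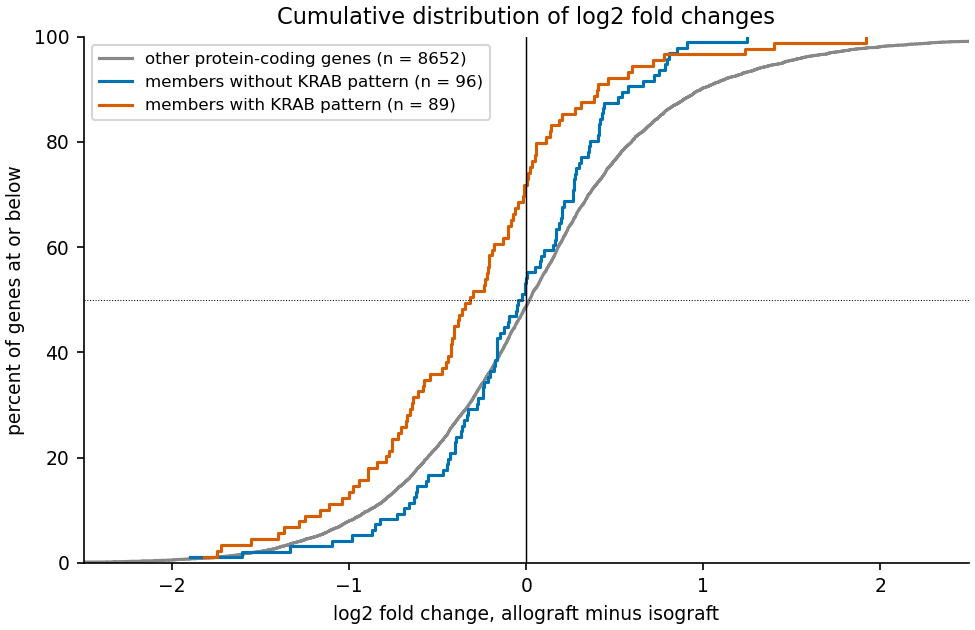
Cumulative percent of genes at or below each log2 fold change (allograft minus isograft) for KRAB members (orange), members without the pattern (blue) and other protein-coding genes (grey). The orange curve crosses the dotted line at 50% near its median of -0.32, left of the blue curve at -0.03 and the grey one at 0.02; 88 other genes lie beyond the axis.

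The 6 largest falls were led by Zfp831. Its level was 68.2, 68.5 and 69.3 TMM-scaled CPM in isograft libraries 1, 2 and 3 and 18.3, 15.97 and 21.0 in allograft libraries 1, 2 and 3, a log2 fold change of -1.90 ± 0.10 (SE) with an adjusted p of 2.1e-12 by edgeR's quasi-likelihood test. The gene lies on chromosome 2 at 174485327 to 174552625 (GRCm39, plus strand) and has a pair of finger patterns and no KRAB pattern. Every isograft library stood more than 3 times above every allograft library. The KRAB gene Zfp386 on chromosome 12 (116011344 to 116026980) had 53.4, 46.4 and 49.3 in isograft and 16.1, 15.001 and 19.6 in allograft libraries, with a log2 fold change of -1.56 ± 0.10. Zfp773 on chromosome 7, also a KRAB gene, had 30.9, 28.4 and 25.2 against 8.01, 7.93 and 9.63 (-1.73 ± 0.12). In both KRAB genes the groups were far apart and the libraries of a group close together.

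Zfp395, whose human counterpart was described as binding the promoter of the Huntington's disease gene, had 25.8, 28.0 and 33.5 TMM-scaled CPM in isograft and 10.4, 8.55 and 9.71 in allograft libraries (log2 fold change -1.60 ± 0.12). The KRAB genes Zfp658 and Zfp273 were lower in level. Zfp658 on chromosome 7 had 10.1, 9.03 and 9.45 against 3.24, 2.03 and 2.81 (-1.82 ± 0.17), and Zfp273 on chromosome 13 had 9.68, 9.05 and 7.80 against 2.27, 3.0003 and 2.63 (-1.75 ± 0.17). For both the groups were well apart, and their allograft means under 5 CPM place them among the members whose direction is tied to the rule. Of the exonic 75-base stretches of Zfp273, 12.8% were shared with another gene, so that part of its reads may have been left out of the counts.

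The 6 largest rises held 3 KRAB genes. Zfp202, a KRAB and SCAN zinc finger gene whose human counterpart is known as a repressor of lipid metabolism genes such as ABCA1, had 4.72, 3.63 and 4.46 TMM-scaled CPM in isograft and 14.7, 16.6 and 16.9 in allograft libraries. Its log2 fold change was 1.92 ± 0.14 (SE; adjusted p = 4.3e-10), and it lies on chromosome 9 at 40103612 to 40124900. All 3 allograft libraries were above all 3 isograft libraries, and its isograft mean was under 5 CPM. Zfp948 on chromosome 17 (21787270 to 21808961) had 15.8, 16.7 and 14.7 against 39.9, 40.6 and 44.2 (1.40 ± 0.09). Zfp566 on chromosome 7 had 5.93, 6.51 and 6.92 against 16.3, 15.6 and 13.6 (1.23 ± 0.13). For Zfp566 14.4% of stretches were shared and 17.9% of exonic bases overlapped another gene, so its counts are uncertain.

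The other 3 large rises had no KRAB pattern. Zfp296, a factor known from embryonic stem cells, had 11.7, 9.99 and 11.2 TMM-scaled CPM in isograft and 24.6, 26.8 and 26.8 in allograft libraries (log2 fold change 1.25 ± 0.11), with 12.9% of its exonic bases under a gene on the other strand. Zfp131, a BTB zinc finger protein, had 109.8, 104.2 and 98.8 against 189.2, 200.8 and 197.1 (0.91 ± 0.07). Zfp800 had 20.6, 20.1 and 15.03 against 35.7, 35.6 and 29.5 (0.85 ± 0.12). In all 3 genes every allograft library lay above every isograft library.

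**Figure D4:**
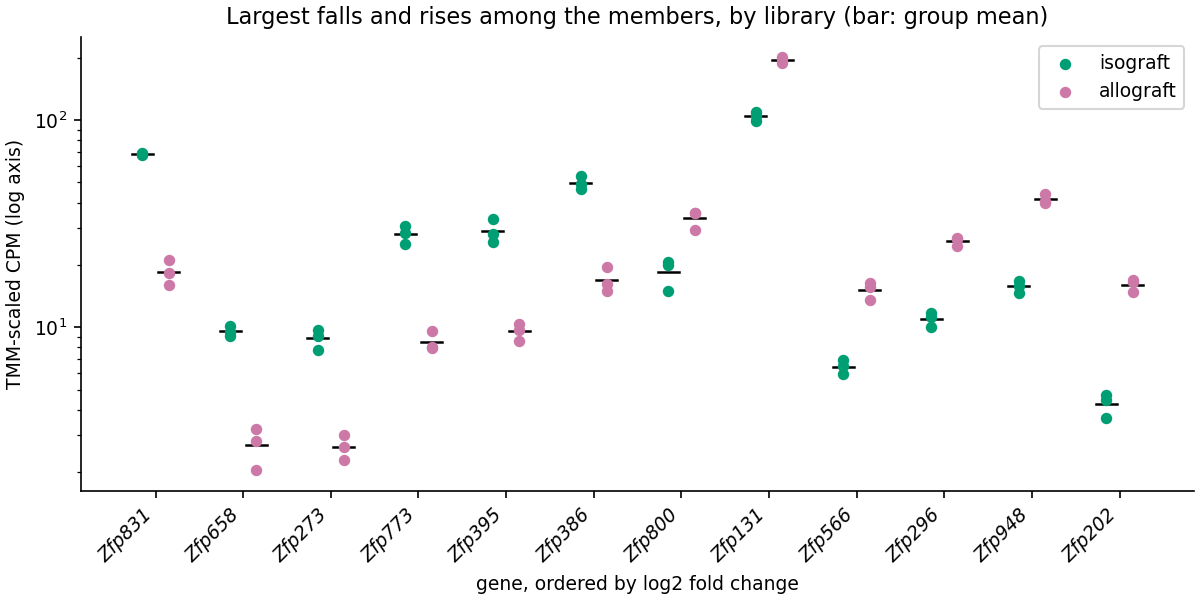
TMM-scaled CPM (log axis) in each library for the 6 largest falls and 6 largest rises among the members, in order of log2 fold change; green points are isograft, pink points allograft, and bars group means. In all 12 genes the libraries of the groups are apart, by the widest ratio in Zfp202 and Zfp831.

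Of the KRAB genes with known targets, 4 are members, and all 4 lie above 20 CPM. Zfp809, which silences murine leukemia virus proviruses, was at 52.3, 51.2 and 44.9 TMM-scaled CPM in isograft and 51.1, 59.6 and 58.2 in allograft libraries; the groups overlapped and it did not pass (log2 fold change 0.19 ± 0.09, adjusted p = 0.070 by edgeR). Zfp445, a guardian of genomic imprints, had 226.3, 234.6 and 218.2 against 212.8, 239.2 and 254.2 and did not pass (0.06 ± 0.07, adjusted p = 0.54); with library totals the values were -0.036 for Zfp809 and -0.16 for Zfp445. Zfp568, which represses a placental promoter of Igf2, rose from 23.8 ± 3.28 to 31.4 ± 3.597 (SD, n = 3; 0.40 ± 0.11, adjusted p = 0.0048), and with library totals it did not pass (0.18, adjusted p = 0.20). Zfp932, which acts on endogenous retroviruses, rose from 21.8 ± 0.777 to 26.5 ± 2.64 (0.28 ± 0.10, adjusted p = 0.022); 32.6% of its stretches are shared with another gene, and with library totals it did not pass (0.05). Of this list of 6, 2 rose, 2 did not pass, and Zfp708 and Zfp819 were near 0.

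Of the 25 members listed as promoter-binding or chromatin factors 10 rose (40%) and 9 fell (36%), near the 36.9% and 34.7% of other protein-coding genes at 5 CPM or more. Zfp652, a repressor that works with CBFA2T3, had 144.3, 168.8 and 163.6 TMM-scaled CPM in isograft and 75.1, 73.7 and 74.1 in allograft libraries, a log2 fold change of -1.10 ± 0.08. The allograft libraries were nearly equal and far below the isograft ones; 19.3% of its exonic bases lie under a gene on the other strand. Zfp217, a component of a CtBP repressor complex, had 83.8, 91.5 and 95.8 against 59.0, 52.4 and 56.5 (-0.69 ± 0.08). Zfp512 had 63.9, 64.0 and 64.4 against 39.7, 41.8 and 48.2 (-0.57 ± 0.08). With Zfp395, Zfp131 and Zfp800 these had the smallest p-values of the list, and all 6 had groups that did not overlap. Their directions were mixed, with 4 falls and 2 rises.

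Of 10 members known from RNA and ribosome biology 5 rose and 5 did not pass. Their median level was 127 CPM, and the share that rose was near the 49% of other protein-coding genes at 80 CPM or more. Zfp106 had 330.1, 324.3 and 335.8 TMM-scaled CPM in isograft and 536, 599 and 599.7 in allograft libraries (log2 fold change 0.81 ± 0.07, adjusted p = 6.2e-09 by edgeR). Zfp330, a nucleolar protein, had 132.6, 120.5 and 131.3 against 222, 219 and 222 (0.79 ± 0.07). Zfp598, the E3 ligase that marks collided ribosomes, had 75.1, 74.6 and 76.0 against 132.6, 128.7 and 118 (0.75 ± 0.07). All 3 were higher in every allograft library.

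The smaller rises in this list were those of Zfp207 and Zfp638. Zfp207 (BuGZ), a spindle protein, rose from 195.5 ± 7.29 to 259 ± 12.4 TMM-scaled CPM (SD, n = 3; log2 fold change 0.40 ± 0.07). Zfp638, which silences unintegrated retroviral DNA together with the HUSH complex, rose from 245 ± 6.05 to 279 ± 23.0 (0.19 ± 0.07, adjusted p = 0.035 by edgeR). The call of Zfp638 is weak, since it was lost under several settings and its sign turned with library totals (-0.03). The levels of Zfp326, which links elongation to splicing, of Zfp346, which binds double-stranded RNA, of Zfp622, which takes part in large ribosomal subunit assembly, of Zfp706 and of Zfp830 had log2 fold changes between -0.10 and 0.17 and did not pass. The highest member by CPM after Zfp106 was Zfp292, at 318, 313 and 301.3 against 261, 273 and 299.3. It did not pass (-0.16 ± 0.07, adjusted p = 0.055), although its groups just failed to overlap.

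Members known from lymphocytes went both ways: of the 4 listed 1 rose, 2 fell and 1 did not pass. The larger fall was that of Zfp831, whose values are given above. Zfp318, which is needed for surface IgD in mature B cells, had 178.6, 193.3 and 180.1 TMM-scaled CPM in isograft and 234, 261 and 248.7 in allograft libraries (log2 fold change 0.43 ± 0.07, adjusted p = 2.8e-05 by edgeR). B cell markers were present in these libraries, as given above, and their part in this difference was not tested. Zfp335, a gene known for thymocyte development, had 28.8, 31.0 and 32.9 against 23.4, 24.1 and 24.5 (-0.37 ± 0.09, adjusted p = 0.0017); 28.3% of its exonic bases lie under a gene on the other strand, and with an offset for length and GC content it did not pass (-0.19, adjusted p = 0.063). Zfp366 (DC-SCRIPT), a dendritic cell gene, had 13.3, 13.6 and 11.5 against 14.0, 14.7 and 14.6 and did not pass (adjusted p = 0.21). Zfp683 (Hobit), a gene of resident and innate-like lymphocytes, was near 0 in both groups.

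Of 30 genes listed for the KRAB corepressor pathway 19 rose (63.3%) and 8 fell (26.7%), with Cbx5, Morc3 and Uhrf1 not passing. The list is abundant, with a median level of 164 CPM, and at 80 CPM or more 49% of other protein-coding genes rose and 28.3% fell. Its median log2 fold change was 0.25, beside 0.17 for those genes. Trim28 itself had 79.2, 89.3 and 94.3 TMM-scaled CPM in isograft and 111, 100.7 and 102 in allograft libraries (log2 fold change 0.26 ± 0.08, adjusted p = 0.0084 by edgeR), and Setdb1 54.5, 57.7 and 58.6 against 65.9, 69.7 and 67.2 (0.25 ± 0.07, adjusted p = 0.0069). Both rises were small and in every allograft library. With library totals only 6 of the list rose, and Trim28 (0.04) and Setdb1 (0.03) did not pass; without isograft library 1 Trim28 did not pass either (0.19).

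Larger changes in this list were found in partners of TRIM28, SETDB1 and the HUSH silencing complex. Morc2a, a HUSH partner, rose from 83.8 ± 5.73 to 240.2 ± 11.6 TMM-scaled CPM (SD, n = 3; log2 fold change 1.52 ± 0.07). Rbbp7, a histone chaperone of the NuRD complex, rose from 376 ± 23.8 to 784 ± 71.8 (1.06 ± 0.08), and Pphln1, a HUSH subunit, from 34.9 ± 1.94 to 57.3 ± 1.86 (0.72 ± 0.08). Atf7ip, which stabilises SETDB1 in the nucleus, fell from 243 ± 12.3 to 138 ± 6.10 (-0.82 ± 0.07). Resf1, which works with SETDB1 on endogenous retroviruses, fell from 339 ± 1.89 to 211 ± 16.3 (-0.68 ± 0.07), and Dnmt1, the maintenance DNA methyltransferase, from 275 ± 40.3 to 171 ± 11.7 (-0.69 ± 0.09). The 8 falls of this list included Atf7ip, Resf1 and Dnmt1 as the 3 with the smallest p.

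By position, 60 members lay in 9 runs of at least 4 members whose starts were within 500000 bases of the next, and 85 members had no member that close. The members lay on 20 chromosomes, with 48 on chromosome 7, of which 20 fell and 11 rose, and 23 on chromosome 17, of which 12 fell and 4 rose. The share of falls was 41.7% on chromosome 7 and 52.2% on chromosome 17, beside 38.4% of all members. On chromosome 6 it was 54.5%, with 6 of 11 members. On chromosomes 8, 13 and 5, with 14, 13 and 12 members, it was lower, at 35.7%, 30.8% and 25%. These shares were not matched for level, and other genes of the chromosomes were not set beside them. The counts of falls by chromosome and run include members that passed the threshold through the isograft group. Members on chromosome 17 had a median level of 14.2 CPM, beside 21.5 for all members. The longest run, on chromosome 17 at 21229165 to 23086108 (GRCm39), held 11 members, all with a KRAB pattern. Of these 8 fell, with log2 fold changes from -0.32 (Zfp758) to -1.29 (Zfp945). Among the 8, Zfp946 and Zfp994, with allograft means of 4.55 and 4.51 TMM-scaled CPM, passed the threshold through the isograft group. By unscaled CPM Zfp760 did so too. Zfp160 and Zfp677 did not pass, and Zfp948, in the same run, rose by 1.40. Zfp945 had 27.6, 27.1 and 28.5 TMM-scaled CPM in isograft and 10.3, 11.2 and 12.7 in allograft libraries, lower in every allograft library, while Zfp948 was higher in each. Zfp945, Zfp758 and the run's other genes were named after their values were seen.

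Counts in the shorter runs varied, on 4 to 10 members each. On chromosome 6 (47812595 to 48063527) 5 of 6 members fell, among them Zfp212, from 51.8 to 30.6 TMM-scaled CPM, and Zfp777 did not pass; both were named after their values were seen. A second run on chromosome 17 (32984470 to 33850753) had 4 falls and 1 rise among 7 members. Of these falls Zfp763 and Zfp101, with allograft means of 3.51 and 4.14 TMM-scaled CPM, passed the threshold through the isograft group. Zfp763 and Zfp101 were named after their values were seen. The run of 10 members on chromosome 7 (126832233 to 127485168) had 3 falls and 2 rises, and the run of 8 at 29515539 to 29869175 had 2 falls and 3 rises. On chromosome 13 (67461062 to 67975121) 1 of 6 members, Zfp273, fell and the others did not pass. Members of a run share a chromosome region, and some share sequence, such as Zfp747 with 21.4% of its 75-base stretches in another gene, while in the run on chromosome 6 the highest share was 3.16%. They were not treated as independent of each other.

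**Figure D5:**
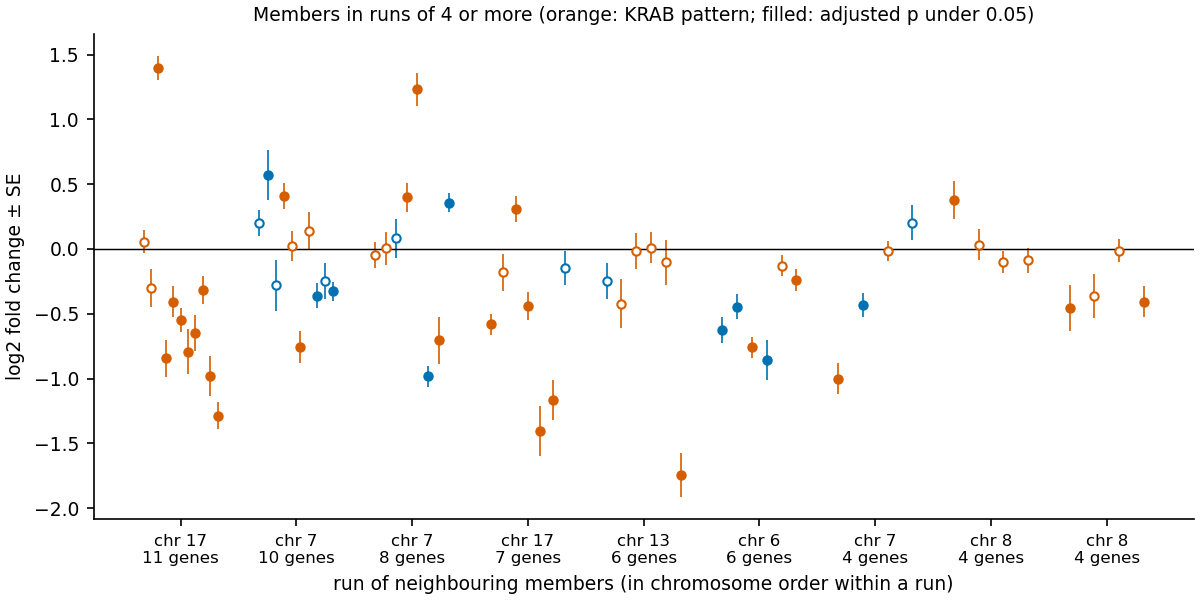
Log2 fold change (allograft minus isograft) with its SE for the 60 members in 9 runs of neighbouring members, in chromosome order within each run; orange marks the KRAB pattern and filled points an adjusted p under 0.05. In the first run of 11 genes 8 filled points lie below 0 and Zfp948 stands apart at 1.40.

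Counting of related genes limits some members. More than 20% of the exonic 75-base stretches were shared with another gene in Zfp414, Zfp984, Zfp617, Zfp932, Zfp747 and Zfp971, from 21.3% to 43.0%. Exons of 54 members overlapped another gene, 44 of them on the opposite strand. For those 44 strand did not separate the reads of the pair, because no strand option was recorded. Where the overlap is on the same strand, strand could not separate them. Counts on overlapping bases are thus uncertain. Of the 54 members with an overlap 14 fell (25.9%) and 13 rose, and of the 131 without one 57 fell (43.5%) and 31 rose. Of the 93 members with neither an overlap nor any shared stretch 36 fell (38.7%) and 23 rose. Among other protein-coding genes at 5 CPM or more 34.7% fell, and these were not split by overlap. The cause of the difference between members with and without an overlap was not tested. At the threshold, the members just inside were Zfp771, with 4.15 ± 0.647 against 6.20 ± 1.46 TMM-scaled CPM, and Zfp971, with 5.23 ± 0.328 against 4.96 ± 0.948; those just outside were Zfp983, with 5.63 ± 0.235 against 3.66 ± 0.818, and Zfp599, with 3.45 ± 0.596 against 6.07 ± 1.03 (SD, n = 3 each). Of the 130 genes of the name under 5 CPM 70 were tested.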

How the data were processed

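RNA was measured by sequencing in 6 libraries, 3 isograft and 3 allograft, grouped by GEO's labels; no batch or date is given there. Per the file headers, the authors aligned with HISAT and used featureCounts 1.6.0 to count read pairs on the exons of each Ensembl gene, and the deposited values are whole-number counts with no normalization. No strand option and no option for reads with several places appears in the recorded command, so by that tool's defaults antisense pairs are not separated and reads from near-identical copies are left out. The headers name Ensembl annotation 104 on GRCm39, whose coordinates are printed here, whereas GRCm38 and mm10 stand in the submitters' processing notes.

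Ensembl IDs were matched to symbols for 52083 of 55416 genes. Genes were kept by filterByExpr (14926 genes, 99.92% of the counts), scaled by TMM, and compared with edgeR 4.0.16 (glmQLFit robust, glmQLFTest, R 4.3.3) with Benjamini-Hochberg adjustment over all of them and a threshold of 0.05. Levels are TMM-scaled CPM; the SE is the log2 fold change over the square root of F. The procedure was also run on simulated data in which few genes changed, balanced in direction. Such data cannot show how the scaling behaves here, where 57.8% of genes tested were called. KRAB A box and C2H2 patterns (cysteines and histidines at their usual spacing) were searched in proteins translated from a GENCODE annotation, the KRAB pattern in the first 350 residues; such patterns can miss divergent domains. Windows of other genes and members came from RefSeq.

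The members and lists were chosen with earlier results of these data known. Genes named with values were the 6 largest rises and falls whose groups did not overlap, the 4 members highest in CPM, the 2 genes on either side of 5 CPM, the members of the KRAB, RNA and lymphocyte lists, 6 of the promoter list and 3 of the corepressor list per direction by smallest p, with Trim28 and Setdb1; others are marked where named. The alternatives were RLE scaling, library totals, DESeq2 1.42.0, limma-voom (limma 3.58.1), a block for the replicate number, no low-count filter, a filter of 5 CPM or more in 3 libraries, offsets for length and for length with GC (mgcv 1.9.3), each library left out, and member thresholds of 2 and 10 CPM.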

Additional observations from a re-analysis of the deposited data

How the results depend on the processing

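With library totals in place of TMM 110 members fell and 23 rose, their median log2 fold change was -0.39, and 6 genes of the corepressor list rose; all genes tested then split into 6093 falls and 2973 rises, against 4349 and 4283, because that scaling moved the median of all genes by -0.22, and the members stayed 0.15 below that median as with TMM. Of the 71 members that fell with TMM, all 71 fell with library totals, and 23 of the 44 that rose did. Over members at 10 CPM or more the median was -0.076. Under RLE scaling, DESeq2, limma-voom, both filters and both offsets 68 to 79 members fell and 42 to 45 rose. Leaving out a library in turn gave 68 to 80 falls and 38 to 43 rises. With the replicate block 72 fell and 42 rose; same-numbered libraries did not deviate together (correlations from -0.06 to 0.003), so the numbers were not taken as pairs. The sign turned, with library totals, for Zfp638 (-0.035), Zfp445 (-0.16), Zfp809 (-0.036), Zfp346 (-0.054), Zfp706 (-0.17), Zfp830 (-0.14) and Zfp366 (-0.054). It also turned with the length offset for Zfp326 (0.012) and Zfp830 (-0.00072), and with length and GC for Zfp706 (-0.00012) and Zfp830 (-0.034). With 1 library left out the log2 fold change crossed 0 for Zfp445 (-0.012 without allograft library 3, up to 0.12), Zfp971 (-0.23 to 0.049 without allograft library 1), Zfp622 (-0.18 to 0.0067 without isograft library 3), Zfp706 (-0.072 without allograft library 1, up to 0.12) and Zfp830 (-0.019 without allograft library 1, up to 0.14). Of these genes, Zfp638 alone had passed the test, and its call was also lost under 7 further settings. Calls of Zfp771, Zfp932, Zfp568, Zfp335, Trim28 and Setdb1 were lost under some settings, and Zfp292 passed under 6; the cause was not tested. Each group has 3 libraries, and low members rest on as few as 59 counts in a library.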
